A study of Homo sapiens with 24 samples.

Results

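The kinesin family of motor proteins was examined in HEK293T cells, a human embryonic kidney line, after knockdown and overexpression of the long non-coding RNA *FMR4*. Members were the genes whose probe sets carry a single symbol of the form KIF or KIFC with a number and an optional letter, each read at its probe set of highest mean. They were 41 of the 18417 genes with a single symbol on the array. By their textbook roles, 13 were taken as mitotic kinesins, 15 as transport kinesins and 13 as others. The others work at the cilium, at microtubule ends or in signalling, or are little studied. *KIF2A*, which also works at spindle poles, was counted among the others, while *KIF2B* and *KIF2C* were counted as mitotic. *KIF4B* has no probe set with its symbol alone and was not counted, while *KIF4A* is read at a probe set that carries only its own symbol.

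Kinesins use the energy of ATP to move along microtubules, most of them toward the plus end. Mitotic kinesins build and separate the poles of the spindle, position chromosomes and complete cell division, and their genes are switched on as cells approach mitosis. Transport kinesins carry vesicles, organelles and RNA granules, and several of them are best known from neurons, where cargo travels along the axon.

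The 24 arrays hold 8 conditions with 3 arrays each. Cells received FMR4 siRNA or a negative control siRNA (CTRL siRNA), both at 40 nM with Lipofectamine RNAiMAX, or FMR4 pcDNA3.1 or the empty vector CTRL pcDNA3.1, both at 0.5 μg with Lipofectamine 2000CD, and RNA was taken 24 or 6 h after transfection. Per the series' design description each array is 1 biological replicate, pooled from 3 technical ones, and whether replicates were separate cultures is not stated, so the p-values measure the spread between these samples. The knockdown rests on 1 siRNA sequence, and siRNA and plasmid arms differ in nucleic acid and reagent. *FMR4* itself was not read by symbol on this array, so neither its knockdown nor its overexpression was checked.

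The values are deposited log2 expression values, and a difference of 1 is a doubling. Array medians lay between 7.43 and 7.53. The 3 arrays of FMR4 siRNA at 6 h were the least alike of any condition: each correlated with the others of its condition at a mean r of 0.9921 to 0.9937, against 0.9956 to 0.9972 for the 21 arrays of the other conditions. Its replicate 3 lay farthest from the condition mean for 25 of the 41 kinesins, and results that rest on it are given with and without it. Replicate 3 of FMR4 siRNA at 24 h had the lowest mean r of those 21 arrays, was farthest for 23 kinesins, and had the second-widest median absolute deviation of the kinesins from their condition mean (0.107, against 0.119 for the 6 h array). A level of 6.00, the upper quartile of 429 olfactory receptor and hair keratin-associated genes, was taken as dim. The filament genes *INA* (12) and *VIM* (12.14) and the kidney factors *PAX2* (7.39) and *PAX8* (7.67), which this line expresses, lay above it. Of 8 markers of blood, liver, skin and fibroblasts, 3 lay below (*PTPRC* 4.35, *LUM* 4.71, *ALB* 4.81) and 5 above, up to *KRT14* (8.27) and *COL1A1* (8.31), so a level above it does not by itself show expression. All 41 kinesins had a mean at or above that level. Many of them lay below *KRT14* and *COL1A1*, so the same limit holds for them. Among those named below they were *KIF16B* (8.26), *KIF13B* (7.77), *KIFC3* (7.5), *KIF21B* (7.48), *KIF6* (7.19), *KIF25* (7.04) and *KIF9* (6.3).

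The promoters of the mitotic kinesins carried sequence features that the choice of members did not use. RefSeq promoters on GRCh38.p14, 300 bases long with 250 before and 50 after the annotated start, were matched to 33 of the 41 genes. They were searched on both strands for TTTGAA, the core of the cell cycle genes homology region through which many genes of the late cell cycle are repressed in resting cells, for its variant TTTAAA, which reads the same on both strands, and for CCAAT, the box bound by the factor NF-Y. A gene was counted where any of its promoters held the motif. Each motif was scored on its own, so letters shared between motifs count for each. TTTGAA occurred in 9 of 13 mitotic kinesins (69.2%), 1 of 11 transport kinesins (9.09%) and 0 of 9 others, against 18.2% of the 27305 genes with a promoter of the same length. TTTGAA or TTTAAA occurred in 11 of 13 mitotic kinesins (84.6%), against 27.9% of all genes, and CCAAT in 10 of 13 (76.9%), against 39.7%. One of the first pair together with CCAAT occurred in 9 of 13 mitotic kinesins (69.2%), against 11.2% of all genes. The TATA box letters TATAAA occurred in 1 of 13 (7.69%), against 14.0%. A match is a description of the letters and not a binding site, and a motif that was not found says nothing of the factor. The stretches from 120 bases before to 30 after the start are shown for the mitotic kinesins that passed the knockdown test (*KIF11*, *KIF18B*, *KIF23*), for *KIF4A* and *KIF18A*, which hold the same motifs and did not pass it, and for the transport kinesin *KIF5C*, which passed it and holds none of them in this stretch. Capitals mark the motifs, which read TTCAAA and ATTGG where they lie on the opposite strand.
KIF11, chr10:92593010-92593159, plus strand: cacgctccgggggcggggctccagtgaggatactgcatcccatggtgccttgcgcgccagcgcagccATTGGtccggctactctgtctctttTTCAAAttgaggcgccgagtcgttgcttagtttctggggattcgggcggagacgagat
KIF18B, chr17:44947744-44947893, minus strand: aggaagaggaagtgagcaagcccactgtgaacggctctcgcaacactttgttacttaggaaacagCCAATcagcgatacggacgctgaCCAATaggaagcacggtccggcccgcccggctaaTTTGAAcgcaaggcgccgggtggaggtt
KIF23, chr15:69414229-69414378, plus strand: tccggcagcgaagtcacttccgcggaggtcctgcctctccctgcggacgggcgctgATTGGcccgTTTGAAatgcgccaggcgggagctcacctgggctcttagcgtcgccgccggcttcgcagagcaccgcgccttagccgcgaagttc
KIF4A, chrX:70289984-70290133, plus strand: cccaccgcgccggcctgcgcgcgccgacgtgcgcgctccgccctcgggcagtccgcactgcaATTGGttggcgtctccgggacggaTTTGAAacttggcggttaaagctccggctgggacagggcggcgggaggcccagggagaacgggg
KIF18A, chr11:28108127-28108276, minus strand: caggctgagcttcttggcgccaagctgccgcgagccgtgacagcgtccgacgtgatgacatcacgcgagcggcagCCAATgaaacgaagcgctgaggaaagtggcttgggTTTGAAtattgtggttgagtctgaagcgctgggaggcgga
KIF5C, chr2:148875107-148875256, plus strand: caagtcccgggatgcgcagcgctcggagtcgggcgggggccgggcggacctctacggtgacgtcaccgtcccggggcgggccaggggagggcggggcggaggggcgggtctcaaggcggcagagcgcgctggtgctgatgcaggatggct
In *KIF11* the TTTGAA motif began 28 bases before the start, in *KIF4A* 34 and in *KIF23* 55, and in *KIF18B* it began at base 3 after it. Among the mitotic kinesins shown, the gene that fell (*KIF23*) and those that rose (*KIF11*, *KIF18B*) held TTTGAA and CCAAT. So did *KIF4A* and *KIF18A*, which were picked as holding them. *KIF13B* and *KIF21B*, which also passed, have no promoter entry. Whether the motifs bear on the calls was not tested.

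At 24 h, 6 of 41 kinesins (14.6%) passed the test with FMR4 siRNA against CTRL siRNA, 5 higher and 1 lower, where 5.88% of all genes passed it, 3.43% higher and 2.45% lower. The test was limma with 1 mean per condition over all 24 arrays, two-sided, with Benjamini-Hochberg adjustment over 21214 probe sets and a threshold of 0.05. The 6 were the mitotic *KIF11*, *KIF18B* and *KIF23*, the transport kinesins *KIF5C* and *KIF13B*, and *KIF21B*. At an unadjusted p under 0.05, 12 kinesins were higher and 1 lower, where 16.4% of all genes had such a p, 9.58% higher and 6.83% lower. Without FMR4 siRNA replicate 3, 5 kinesins passed (12.2%), where 5.44% of all genes did: *KIF18B* and *KIF21B* no longer passed and *KIF13A* did. Without FMR4 siRNA replicate 1, 5 passed (12.2%), where 4.56% of all genes did. Without FMR4 siRNA replicate 2, only 2 passed (4.88%), near the 4.08% of all genes. Without CTRL siRNA replicate 1, 2 or 3 the shares were 9.76%, 7.32% and 7.32%, against 4.46%, 3.55% and 4.6% of all genes. The arrays of both groups did not overlap for 14 kinesins (34.1%), against 22.2% of all genes. Of these, 12 were higher and 2 lower, against 12.6% and 9.55% of all genes.

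**Figure D1:**
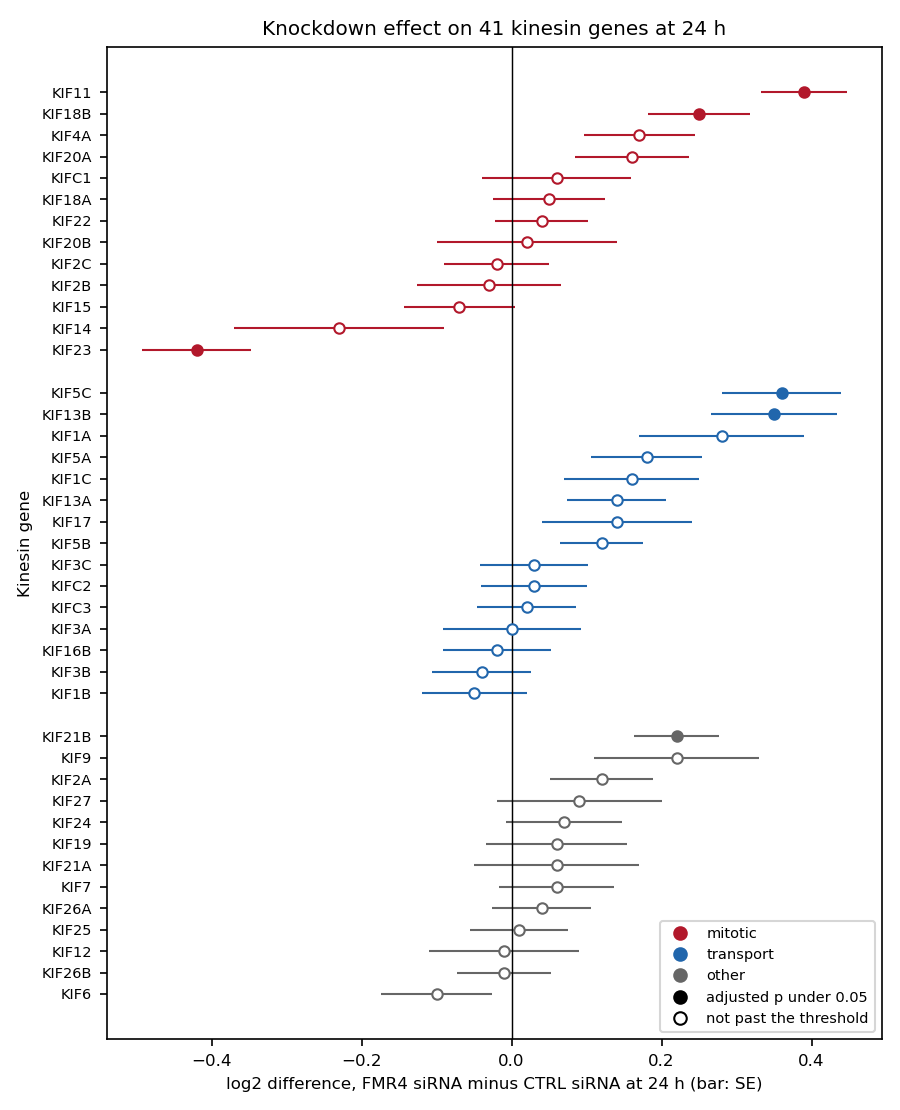
Log2 difference between FMR4 siRNA and CTRL siRNA at 24 h for the 41 kinesins, ordered by size within the mitotic, transport and other classes. Points are differences of 3 arrays each, bars are standard errors, and filled points passed the test. Differences run from −0.42 (KIF23) to 0.39 (KIF11). Above 0 lie 12 of 15 transport, 10 of 13 other and 8 of 13 mitotic kinesins.

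Mitotic kinesins moved in both directions in the knockdown. *KIF11* (Eg5, chromosome 10) slides antiparallel microtubules apart and sets up the bipolar spindle. Its log2 expression was 11.23, 11.24 and 11.07 with FMR4 siRNA, against 10.81, 10.77 and 10.81 with CTRL siRNA, at 24 h. The groups do not overlap, and the CTRL siRNA arrays of 24 h are also below the other 21 arrays of the study, the lowest of which is at 10.94. The means of 11.18 ± 0.09 and 10.79 ± 0.02 (SD, n = 3 each) differed by 0.39 (SE 0.057), a 1.31-fold difference (limma adjusted p = 8.65e-05).

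*KIF23* (MKLP1, chromosome 15), a subunit of the centralspindlin complex that organises the midzone and is needed for cytokinesis, differed in the other direction. It was at 10.99, 10.97 and 10.69 with FMR4 siRNA, against 11.37, 11.22 and 11.33 with CTRL siRNA. Here the FMR4 siRNA arrays of 24 h are the ones below every other array, the lowest of the remaining 21 being at 11.01. It fell by 0.42 (SE 0.073, limma adjusted p = 0.000628). For *KIF11* it was thus the CTRL siRNA arrays that lay outside the range of the other conditions. For *KIF23* the FMR4 siRNA arrays did so, but the values 10.99 and 10.97 were close to 11.01. Its CTRL siRNA value of 11.37 was also the highest of all arrays, so the difference did not lie in the FMR4 siRNA arrays alone. Without FMR4 siRNA replicate 3 (10.69) the difference was −0.32 (limma adjusted p = 0.00555).

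*KIF18B* (chromosome 17), a plus-end motor that keeps astral microtubules short, was at 10.58, 10.71 and 10.72 with FMR4 siRNA, against 10.44, 10.42 and 10.41 with CTRL siRNA. The groups do not overlap, and the CTRL siRNA values are near those of the plasmid arrays of 24 h, between 10.33 and 10.53. The difference was 0.25 (SE 0.068, limma adjusted p = 0.0313). A second probe set of the gene gave 0.17 (adjusted p = 0.295). The call was lost with quantile normalization, all probe sets, the mean over both probe sets or the replicate number as a block (adjusted p = 0.0524 to 0.1), and without any 1 of the 6 arrays other than FMR4 siRNA replicate 1 (adjusted p = 0.0734 to 0.126).

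The other 10 mitotic kinesins did not pass, with differences from −0.23 to 0.17, and the class had a median of 0.045 beside 0.004 over all genes. The widest of them were *KIF14*, which acts with citron kinase at the midbody (−0.23, adjusted p = 0.475), *KIF4A*, a chromokinesin that works with PRC1 at the midzone (0.17, adjusted p = 0.264), and *KIF20A* (MKLP2), which brings the chromosomal passenger complex to the midzone (0.16, adjusted p = 0.294). *KIF14* and *KIF20A* had arrays that do not overlap, one lower and the other higher.

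Among transport kinesins the 2 that passed were both higher. *KIF5C* (chromosome 2), a heavy chain of conventional kinesin enriched in neurons, was at 9.01, 9.12 and 8.86 with FMR4 siRNA, against 8.79, 8.44 and 8.68 with CTRL siRNA. The groups do not overlap. FMR4 siRNA replicates 1 and 2 are near the 12 arrays of 6 h, which lie between 8.96 and 9.09. Replicate 3 (8.86) is below those and near the plasmid arrays of 24 h, between 8.6 and 8.84. The difference was 0.36 (SE 0.079, limma adjusted p = 0.00558), which did not pass without CTRL siRNA replicate 2 (0.26, adjusted p = 0.0623) or FMR4 siRNA replicate 2 (0.30, adjusted p = 0.0506).

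*KIF13B* (GAKIN), which carries the scaffold DLG1 and phosphoinositide-rich vesicles, was at 8.11, 8.07 and 7.9 with FMR4 siRNA, against 7.82, 7.60 and 7.61 with CTRL siRNA. The plasmid arrays of 24 h, between 7.79 and 8.0, overlap the range of each group. The difference was 0.35 (SE 0.084, limma adjusted p = 0.0116). It did not pass when FMR4 siRNA replicate 1 or 2, or replicate 2 or 3 of CTRL siRNA, was left out (0.31 to 0.33, adjusted p = 0.0559 to 0.0768).

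*KIF1A*, the motor of synaptic vesicle precursors, was at 10.00, 10.12 and 10.16 with FMR4 siRNA, against 9.94, 9.62 and 9.88 with CTRL siRNA, and the difference of 0.28 (SE 0.11, limma adjusted p = 0.158) did not pass. Over the class, 12 of 15 transport kinesins were above 0, with a median of 0.118. Over all genes 51.7% were above 0, with a median of 0.004. This was not particular to the class: 10 of 13 others (76.9%) and 8 of 13 mitotic kinesins (61.5%) were above 0. So were 12 of the 15 kinesin light chains and adaptors counted below (80%). The arrays did not overlap for 6 of the 15 transport kinesins, all higher, where 12.6% of all genes were apart in that direction. These were *KIF5A* (0.18), the ubiquitous heavy chain *KIF5B* (0.12) and *KIF1C* (0.16), named after their values were seen, beside the 3 given above.

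*KIF21B* (chromosome 1), which moves on and slows the growth of microtubules in neurons and lymphocytes, was at 7.53, 7.59 and 7.64 with FMR4 siRNA, against 7.37, 7.4 and 7.33 with CTRL siRNA. The groups do not overlap, and the plasmid arrays of 24 h, between 7.46 and 7.60, lie above all 3 CTRL siRNA arrays. The difference was 0.22 (SE 0.057, limma adjusted p = 0.0222), and it did not pass when FMR4 siRNA replicate 2 or 3, or replicate 1 or 3 of CTRL siRNA, was left out (adjusted p = 0.0631 to 0.0967) or with the replicate number as a block (adjusted p = 0.0746). *KIF9*, of motile cilia, was at 6.33, 6.42 and 6.56 with FMR4 siRNA, against 6.32, 6.04 and 6.28 with CTRL siRNA (0.22, adjusted p = 0.314). *KIF2A*, a microtubule depolymerase of spindle poles and neurites, was at 11.72, 11.83 and 11.64, against 11.63, 11.56 and 11.63 (0.12, adjusted p = 0.463). The 13 kinesins of this group had a median of 0.063.

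**Figure D2:**
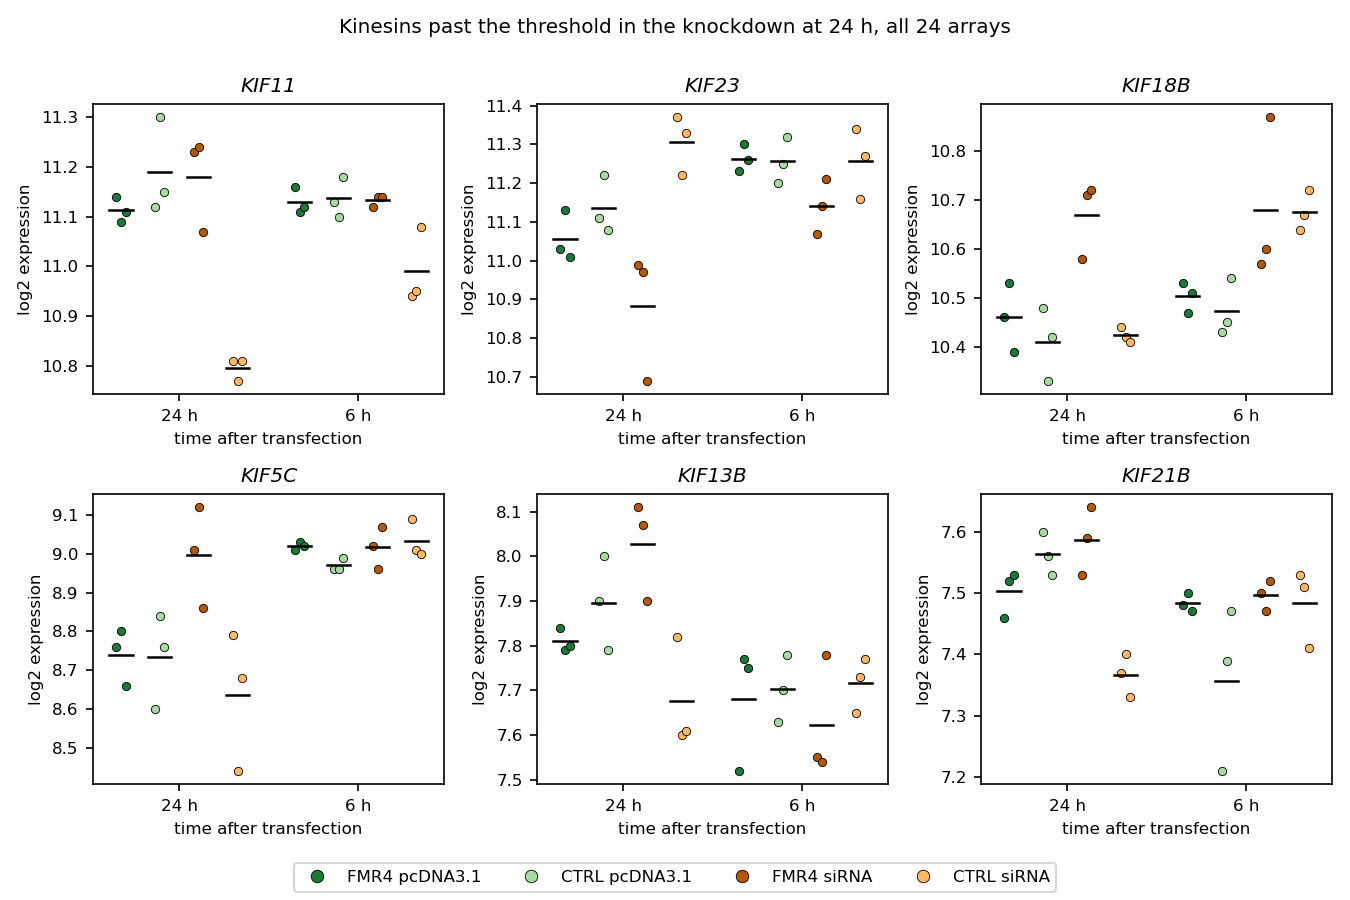
Log2 expression of the 6 kinesins that passed the knockdown test at 24 h, in all 24 arrays. Points are arrays, black lines are means of 3, and conditions run from left to right as FMR4 pcDNA3.1, CTRL pcDNA3.1, FMR4 siRNA and CTRL siRNA within each time. The CTRL siRNA arrays of 24 h are lowest for KIF11 (10.77 to 10.81), and the FMR4 siRNA arrays of 24 h are lowest for KIF23 (10.69 to 10.99).

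At 6 h, limma called 0 of 41 kinesins with FMR4 siRNA against CTRL siRNA, where it called 0.0597% of all genes. At an unadjusted p under 0.05 there were 4, where 3.9% of all genes had such a p. They are named after their values were seen: *KIF11* (0.14) and the ciliary *KIF6* (0.17) were higher, and *KIF25* (−0.22) and the minus-end motor *KIFC3* (−0.14) lower. *KIF11* was at 11.12, 11.14 and 11.14 with FMR4 siRNA, against 10.94, 10.95 and 11.08 with CTRL siRNA, so its groups did not overlap at either time. At 6 h this held for 3 kinesins (7.32%), the others being *KIF25* and *KIF6*, against 5.6% of all genes. *KIF23* was at 11.07, 11.14 and 11.21, against 11.34, 11.16 and 11.27, and overlapped (−0.12, SE 0.073). Without FMR4 siRNA replicate 3, *KIF25*, *KIF7* and *KIF1A* passed the test, all lower (7.32% of the kinesins, where 4.64% of all genes passed). *KIF1A* was at 10.48 in that replicate, above 9.96 and 9.92 in the others, and CTRL siRNA was at 10.22, 10.30 and 10.31.

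The knockdown effect at 24 h minus that at 6 h was called for 0 of 41 kinesins by limma, where 1.18% of all genes were called, and 11 kinesins had an unadjusted p under 0.05, where 11.3% of all genes did. The kinesins passing at 24 h are therefore not shown to differ from 6 h. The lowest adjusted p were those of *KIF13B* (0.45, SE 0.12, adjusted p = 0.0754) and *KIF5C* (0.38, SE 0.11, adjusted p = 0.123), and *KIF11* (0.25) and *KIF23* (−0.31) had adjusted p of 0.184 and 0.211. Without FMR4 siRNA replicate 3 of 6 h, 7 kinesins passed (17.1%), where 8.32% of all genes did: *KIF13B*, *KIF1A*, *KIF5C*, *KIF18B* and *KIF7* higher, *KIF14* and *KIF6* lower. *KIF14* was at 8.99 in that replicate and at 9.75 and 9.69 in the others.

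Overexpression did not move a kinesin past the threshold. With FMR4 pcDNA3.1 against CTRL pcDNA3.1, limma called 0 of 41 at 24 h and 0 at 6 h, where 0% of all genes were called at both times, and 3 and 1 kinesins had an unadjusted p under 0.05, where 3.27% and 2.03% of all genes did. Those of 24 h, named after their values were seen, were all transport kinesins and lower: *KIF3B*, a subunit of the kinesin of intraflagellar transport (−0.17), *KIF13A*, of recycling endosomes (−0.16), and *KIF16B*, of early endosomes (−0.16), each with an adjusted p of 0.999. That of 6 h was *KIF21B* (0.13, adjusted p = 1). The arrays of 24 h did not overlap for 8 kinesins (19.5%), against 12% of all genes. All 8 were lower, against 9.45% of all genes, and 6 of them were transport kinesins. The median of the 15 transport kinesins was −0.08 and that of the 13 mitotic ones −0.08, beside −0.026 over all genes.

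The kinesins that passed in the knockdown showed small differences here. *KIF11* was at 11.14, 11.09 and 11.11 with FMR4 pcDNA3.1, against 11.12, 11.30 and 11.15 with CTRL pcDNA3.1, at 24 h (−0.08, SE 0.057). *KIF23* was at 11.03, 11.13 and 11.01, against 11.11, 11.22 and 11.08 (−0.08, SE 0.073). Both overlap. The differences of *KIF18B*, *KIF5C*, *KIF13B* and *KIF21B* were 0.05, 0.01, −0.09 and −0.06, each with an adjusted p of 0.999. A p that misses the threshold does not show that levels were equal.

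**Figure D3:**
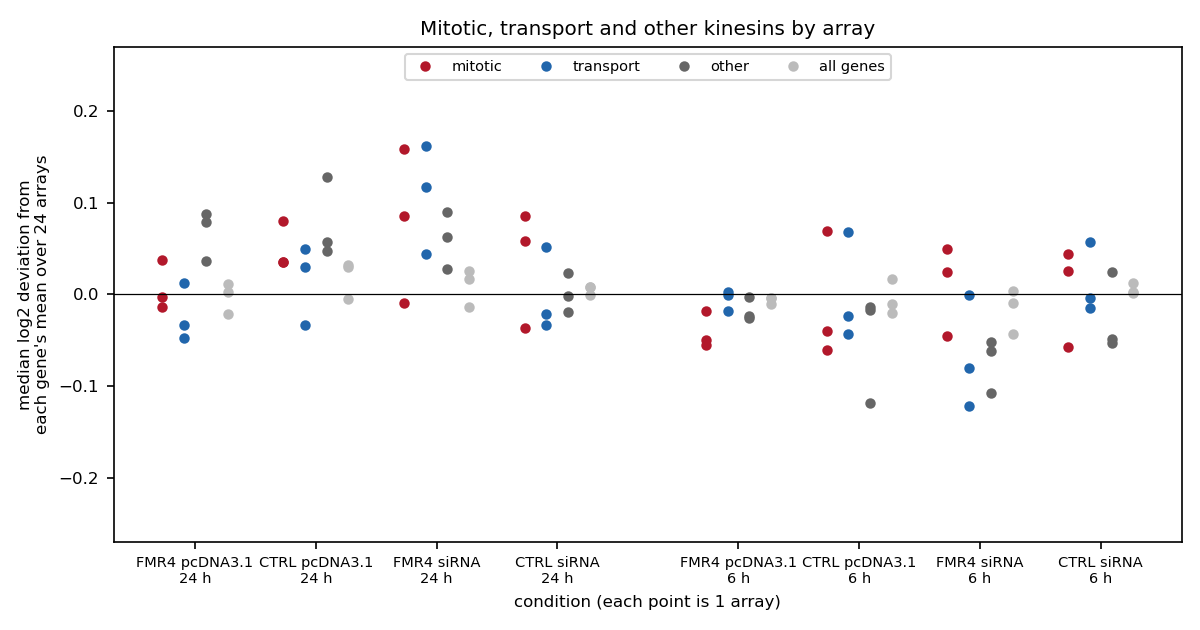
Median deviation of the mitotic, transport and other kinesins and of all genes from each gene's mean over the 24 arrays, in log2 units, with 1 point per array. The 2 highest medians of transport kinesins are those of FMR4 siRNA replicates 2 and 1 at 24 h (0.162 and 0.117), and no class separates FMR4 pcDNA3.1 from CTRL pcDNA3.1 at 6 h.

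By array, the median deviation of the 15 transport kinesins from their mean over all arrays was 0.117, 0.162 and 0.044 with FMR4 siRNA at 24 h, against 0.052, −0.022 and −0.034 with CTRL siRNA. The groups overlap, since the lowest FMR4 siRNA array lies below the highest CTRL siRNA array. The 13 mitotic kinesins had 0.085, 0.159 and −0.009 with FMR4 siRNA, against 0.086, −0.037 and 0.058 with CTRL siRNA, and overlap. The 13 others had 0.028, 0.09 and 0.063 with FMR4 siRNA, against −0.002, −0.019 and 0.023 with CTRL siRNA, and do not overlap. Within conditions, deviations of pairs of kinesins over the 24 arrays had a median r of 0.12 for 78 mitotic pairs, 0.13 for 105 transport pairs and 0.13 for 195 mixed pairs, a description in which the points share arrays and their normalization.

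The 24 h and 6 h arrays were compared within each transfection condition. Time in culture, handling and any array batch cannot be told apart in these comparisons, and rose and fell name the direction only. Between 24 and 6 h, 12 of 41 kinesins passed with FMR4 siRNA, 10 higher and 2 lower, where 16.7% of all genes passed (12.3% higher and 4.37% lower). Without FMR4 siRNA replicate 3 of 6 h, 10 passed (24.4%), all higher, where 13.3% of all genes passed. Of these, 9 were among the 12. With CTRL siRNA 15 passed, 10 higher and 5 lower, where 18.5% of all genes passed (9.8% and 8.75%). With FMR4 pcDNA3.1 4 passed, 3 higher and 1 lower, where 6.33% of all genes passed (3.3% and 3.03%). With CTRL pcDNA3.1 3 passed, all higher, where 5.76% of all genes passed (3.83% and 1.93%). The shares of kinesins called with plasmid, 9.76% and 7.32%, are near those of all genes. *KIF24*, which removes microtubules at the mother centriole and restrains cilium formation, was higher at 24 h in all 4 conditions. With FMR4 siRNA it was at 8.45, 8.59 and 8.36 at 24 h, against 8.13, 7.90 and 8.14 at 6 h, a difference of 0.41 (SE 0.077, adjusted p = 0.00103). The differences were 0.26 with CTRL siRNA, 0.42 with FMR4 pcDNA3.1 and 0.43 with CTRL pcDNA3.1 (adjusted p = 0.0197, 0.00203 and 0.00165), and with CTRL siRNA the call was lost without replicate 1 of 6 h or replicate 1 or 3 of 24 h.

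*KIF6* was also higher at 24 h in both plasmid conditions. At 24 h it was at 7.55, 7.54 and 7.59 with FMR4 pcDNA3.1, against 7.22, 6.99 and 7.20 at 6 h (0.43, SE 0.074, adjusted p = 0.00141). It differed by 0.43 with CTRL pcDNA3.1 and 0.47 with CTRL siRNA (adjusted p = 0.0011 and 0.000209), and by 0.20 with FMR4 siRNA (adjusted p = 0.0695). In each of these conditions the arrays of 24 h and 6 h lie apart, except with FMR4 siRNA, where 7.0 at 24 h is below 7.09 at 6 h.

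Several transport kinesins differed between 24 and 6 h in the siRNA conditions. *KIF1B*, which carries mitochondria and synaptic vesicle precursors, was at 10.01, 10.17 and 9.98 with FMR4 siRNA at 24 h, against 9.79, 9.74 and 9.49 at 6 h (0.38, SE 0.070, adjusted p = 0.000753), and rose by 0.43 with CTRL siRNA (adjusted p = 0.000278). *KIF1C*, of Golgi-derived and integrin vesicles, rose by 0.49 with FMR4 siRNA and 0.34 with CTRL siRNA (adjusted p = 0.00084 and 0.0105). *KIF3A*, the other motor subunit of intraflagellar transport, fell by 0.31 with FMR4 siRNA and 0.29 with CTRL siRNA (adjusted p = 0.0268 and 0.03). *KIF16B* rose by 0.22 in each of the 2 conditions (adjusted p = 0.0409 in both). With FMR4 and CTRL siRNA, *KIF24*, *KIF2A* (0.33 and 0.22), *KIF21A* (0.48 and 0.34) and the depolymerase *KIF2C* (MCAK; 0.27 and 0.33) rose too. With FMR4 siRNA the calls of *KIF1B*, *KIF1C*, *KIF24*, *KIF2A*, *KIF21A*, *KIF13B* and *KIF5A* held in all 15 settings tried, each left-out array included, and with CTRL siRNA those of *KIF1B*, *KIF2C*, *KIF6*, *KIF1A* and *KIF5C* did. Each of the other calls was lost in at least 1 setting. The *KIF16B* call held in 7 of 15 settings in each condition, and without FMR4 siRNA replicate 3 of either time *KIF3A* did not pass with FMR4 siRNA.

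Other kinesins passed in 1 of the siRNA conditions, and differences between conditions were tested only as the knockdown effect above. With FMR4 siRNA alone, *KIF13B* (0.40), *KIF5A* (0.37) and *KIF13A* (0.27) rose and *KIF23* fell by 0.26 (adjusted p = 0.0183), a call lost without replicate 3 of either time. With CTRL siRNA alone, *KIF6* (0.47), *KIF14* (0.45) and *KIF20B* (0.41) rose, while *KIF1A* (−0.46), *KIF5C* (−0.40), *KIF18B* (−0.25) and *KIF11* (−0.20) were lower at 24 h than at 6 h. *KIF5C* also fell by 0.28 with FMR4 pcDNA3.1 (adjusted p = 0.0354, lost without any 1 of its 6 arrays) and, with CTRL pcDNA3.1, was lower by a margin that did not pass (−0.24, adjusted p = 0.0769). With FMR4 siRNA it stayed at 9.01, 9.12 and 8.86 at 24 h, against 9.02, 8.96 and 9.07 at 6 h. These comparisons use the same arrays as the knockdown comparison and are not separate evidence for it. *KIF27* (0.41, FMR4 pcDNA3.1) and *KIF21B* (0.21, CTRL pcDNA3.1) each passed in 1 plasmid condition (adjusted p = 0.0268 and 0.0354), and these calls held in 9 and 5 of 15 settings.

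**Figure D4:**
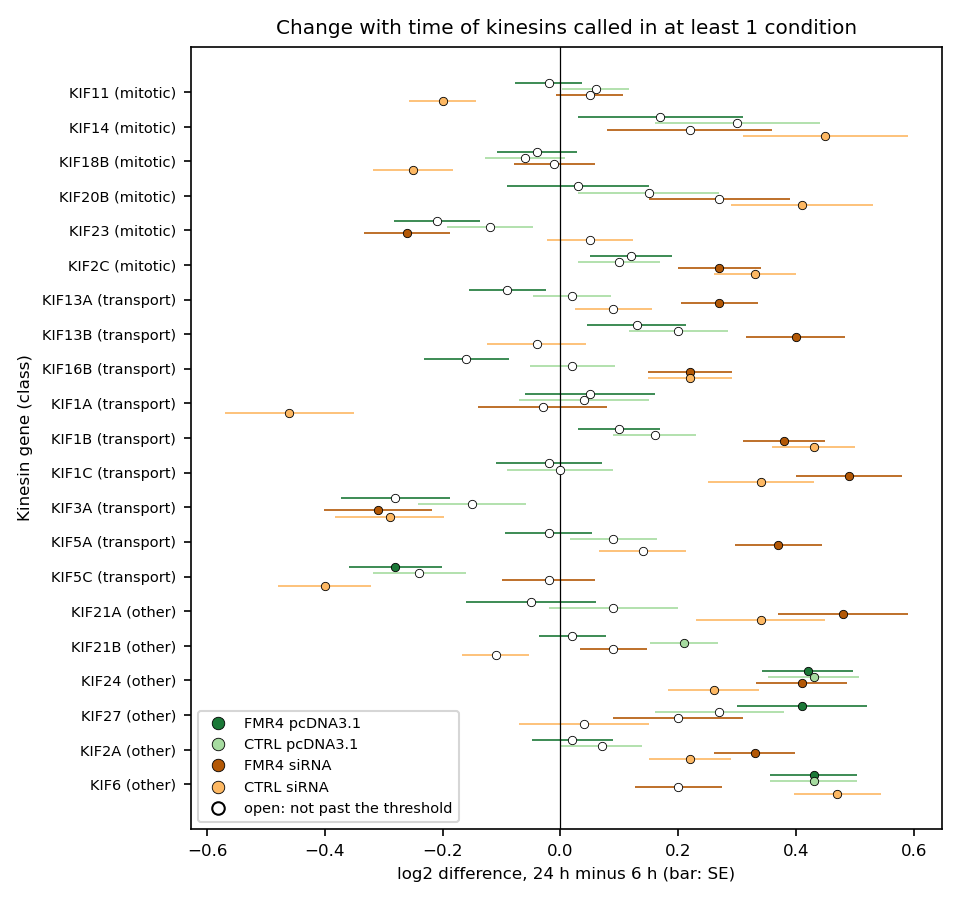
Log2 difference between 24 h and 6 h, with standard errors, for the 21 kinesins that passed the test in at least 1 of the 4 transfection conditions. Filled points passed the test. KIF24 is filled in all 4 conditions, and KIF5C lies near 0 with FMR4 siRNA and between −0.40 and −0.24 in the others.

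The controls of both arms differed for 2 kinesins. The shares of kinesins called, 4.88% at 24 h and 2.44% at 6 h, are near those of all genes. At 24 h *KIF11* was higher by 0.40 (SE 0.057, limma adjusted p = 0.000146) and *KIF6* by 0.28 (adjusted p = 0.0329) in CTRL pcDNA3.1 than in CTRL siRNA, where 4.48% of all genes passed (2.89% higher and 1.59% lower). At 6 h *KIF6* was higher by 0.31 (adjusted p = 0.0298), where 3.3% passed (1.6% higher and 1.7% lower), and *KIF11* differed by 0.14 (adjusted p = 0.138). The *KIF6* call was lost without any 1 of the 6 arrays at 24 h, and at 6 h without any 1 other than CTRL pcDNA3.1 replicate 2. *KIF11* was at 11.12, 11.30 and 11.15 with CTRL pcDNA3.1, against 10.81, 10.77 and 10.81 with CTRL siRNA, at 24 h. The CTRL siRNA arrays of 24 h enter this comparison, the knockdown comparison and the time comparison of CTRL siRNA alike. For *KIF11* those arrays are the ones that stand apart in all 3, and what set their level was not tested. Changes with time of the control difference and of the overexpression effect were compared after the values were seen. For the control difference limma called 0 kinesins (8 at an unadjusted p under 0.05), where 1.12% of all genes were called and 16.9% had such a p. For the overexpression effect it called 0 (1 at an unadjusted p under 0.05), where 0% of all genes were called and 1.85% had such a p.

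Proteins that work with these motors were counted from lists of their own. Of 17 mitotic partners, 1 passed in the knockdown at 24 h (5.88%, the same share as of all genes): *PRC1*, which crosslinks midzone microtubules and recruits KIF4A, was at 11.78 ± 0.05 with FMR4 siRNA and 11.36 ± 0.05 with CTRL siRNA (SD, n = 3 each), a difference of 0.42 (SE 0.055, adjusted p = 2.77e-05). Like *KIF11*, it was also higher in CTRL pcDNA3.1 than in CTRL siRNA (0.31, adjusted p = 0.00172). Of 20 dynein and dynactin genes 1 passed (5%), also near that share: *DYNLT1*, a light chain of the minus-end motor (0.26, SE 0.074, adjusted p = 0.0422). Of 15 kinesin light chains and adaptors, 0 passed in limma and 4 had an unadjusted p under 0.05, where 16.4% of all genes did. The medians of the 3 lists were 0.009, −0.004 and 0.071 beside 0.004 over all genes, and none of their genes passed in the other 3 *FMR4* comparisons.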

How the data were processed

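RNA of 24 HEK293T samples was hybridised to Affymetrix gene arrays, version 1.0 ST per the labels and 2.0 in the study's methods. The deposited values are log2 expression after background subtraction and GC-RMA normalization by the authors (version not given in the sources used here), and were used as they are. They lie between 2.62 and 14.5. Probe sets were named through the platform annotation: of 33297, 12083 had no gene and were left out, and 19460 had 1 symbol, for 18417 genes. Each condition was given 1 mean in limma 3.58.1 (R 4.3.3) over all 24 arrays, without trend or robust options (16 residual degrees of freedom, median 22 after moderation), and p-values were adjusted over 21214 probe sets within each comparison. The test was checked on simulated data. Promoters were searched in Python 3.11.15, with plots by matplotlib 3.10.9. The number of arrays limits the precision.

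Members, classes and lists were chosen with earlier results of these data known. Kinesins past the threshold in an *FMR4* comparison, and the 3 of lowest p per class in the knockdown at 24 h, are given in every array of that comparison. Kinesins past the threshold are named elsewhere, and others are counted. Some genes of the partner and marker lists are not reported here. Promoters were not used for 8 kinesins without an entry, and none is printed from chromosome 8. The fit was repeated with each single array omitted, with fewer arrays, with the replicate number as a block, with trend and robust moderation, and with array weights. It was also repeated after quantile normalization, after median centring, without dim probe sets, over all 33297 probe sets and with probe sets averaged per gene. Nothing in the labels ties arrays of equal number to each other. Same-number correlations of the arrays' deviations ran from −0.38 to 0.47, and in 0 of 10 comparisons were all 3 over 0.1, so numbers were not used as pairs. Scanner files were not used.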

Additional observations from a re-analysis of the deposited data

How the results depend on the processing

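In the knockdown at 24 h, *KIF11* and *KIF23* kept their calls under all 9 alternatives and without any single array (*KIF11* 0.36 to 0.44, *KIF23* −0.47 to −0.32). The count of 6 became 4 to 6 under the alternatives and 2 to 5 without 1 array. The lowest, without FMR4 siRNA replicate 2, was 4.88% of the kinesins, near the 4.08% of all genes. For the 9 alternatives the share of all genes was not counted, so whether all genes moved alike is not shown. At 6 h it was 0 to 3 without 1 array, and the change of the knockdown effect with time gave 0 to 7. The highest in each case came without FMR4 siRNA replicate 3 of 6 h (7.32% and 17.1% of the kinesins). That fit also called more of all genes: 4.64% and 8.32%, against 0.0597% and 1.18% with all arrays. Overexpression gave 0 throughout. Array weights raised the counts for the change of the knockdown effect with time to 3, for time with FMR4 pcDNA3.1 to 7 and with CTRL pcDNA3.1 to 10, for the control difference to 7 at 24 h and 11 at 6 h, and for its change with time to 7. A fit to fewer arrays gave 5 for time with CTRL siRNA, 7 with FMR4 pcDNA3.1 and 5 with CTRL pcDNA3.1, 0 for the control difference at 6 h and 1 for its change with time. With all probe sets the count for time with FMR4 pcDNA3.1 was 2. The control difference at 24 h fell to 1 with quantile normalization, median centring or all probe sets. At 6 h it was 5 with quantile normalization and 2 with dim probe sets removed, which also gave 1 for its change with time. Without 1 array, time gave 9 to 18 kinesins with FMR4 siRNA (22% to 43.9%) and 6 to 11 with CTRL siRNA (14.6% to 26.8%). It gave 2 to 3 with FMR4 pcDNA3.1 and with CTRL pcDNA3.1 (4.88% to 7.32%). The shares of all genes were 10% to 24.4%, 10.1% to 17.8%, 2.42% to 4.65% and 2.12% to 4.4%, in that order. The control difference gave 1 to 2 at 24 h, 0 to 1 at 6 h and 0 to 1 in its change with time. The shares of all genes there were 1.99% to 3.66%, 0.0489% to 2.68% and 0.228% to 1.36%. The causes were not tested.

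With the replicate number as a block, a pairing the labels do not state, 4 kinesins passed in the knockdown at 24 h (*KIF18B*, adjusted p = 0.0535, and *KIF21B*, adjusted p = 0.0746, did not), 0 at 6 h, 0 in the overexpression at either time, 0 in either change of an effect with time, 11 and 15 over time with FMR4 and CTRL siRNA, 4 and 2 with FMR4 and CTRL pcDNA3.1, and 2 and 1 in the control difference at 24 and 6 h.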
